A study of Mus musculus with 10 samples.

Results

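The 599 REST peaks described here were listed in the cortex of 3xTg mice, overlapped no peak of the wild-type (WT) list, and lay at promoters whose start sites all read from one strand. They were selected on the peak calls themselves. Of 5077 3xTg peaks outside chromosome Y, 2588 (51%) overlapped none of the 3006 WT peaks by a single base. Of the 1230 3xTg peaks at one-strand promoters, 599 (48.7%) did so and 631 were shared with WT. A one-strand promoter peak had its summit within 1 kb of a curated RefSeq start site and held, in its span and 1 kb on each side, start sites of 1 strand only. Another 151 3xTg-only peaks sat at two-strand promoters, 1162 inside gene bodies and 676 between genes.

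The tissue was bulk cortex of female mice aged 11 months. 3xTg mice carry transgenes for APP with the Swedish mutation and for tau P301L, with a mutant presenilin 1 (PS1) knock-in, on a mixed background of C57BL/6J with 129Sv/Ev; WT mice served as the controls. Chromatin was precipitated with an antibody against the C-terminus of REST in 4 libraries per genotype, each from 4 pooled cortices, with 1 input library per genotype. The 4 libraries of a genotype were called together, so there is 1 peak list per genotype, these lists give no spread between replicates and allow no test of genotype. The study also tested differential binding over its replicates, which was not used here. The lists hold no expression values, so the tissue could not be checked against marker genes.

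REST is a zinc finger repressor that recognises a long DNA element, the RE1, and recruits the Sin3 and CoREST complexes with their histone deacetylases and demethylases. Its best known targets are genes for ion channels, synaptic proteins and neuropeptides, which it holds silent outside neurons and tunes within them. Many promoters of broadly expressed genes are rich in G+C and CpG and carry short elements such as the GC box and the CCAAT box. A promoter peak without an RE1 is therefore described here by those elements too.

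An RE1 within the 200 bases centred on the summit, with at most 5 mismatches to the RE1 consensus of 20 bases, was found at 7 of the 599 peaks. That is 1.17%, near the 0.781% of 200-base windows centred on every curated start site. The 7 sites are printed because they are the complete set of peaks in the class with that element. Capitals mark the bases that match the consensus, and the strand is that of the element. In mm10 (GRCm38.p6) the printed stretches are Scn2a at chr2:65619955-65619994 (minus strand), Kcnh4 at chr11:100758997-100759036 (plus strand), Trpc7 at chr13:56895588-56895617 (plus strand), Crh at chr3:19694619-19694658 (plus strand), Mmp24 at chr2:155775757-155775796 (minus strand), Rtn2 at chr7:19283143-19283182 (plus strand) and Gabrd at chr4:155397671-155397710 (minus strand).
Scn2a: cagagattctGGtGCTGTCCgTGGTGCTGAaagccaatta
Kcnh4: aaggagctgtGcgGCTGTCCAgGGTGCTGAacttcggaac
Trpc7: gaggtGcCGCTcTCCgTGGTGCTGAagtcg
Crh: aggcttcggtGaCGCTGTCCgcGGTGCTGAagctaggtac
Mmp24: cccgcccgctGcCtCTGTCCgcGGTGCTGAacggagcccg
Rtn2: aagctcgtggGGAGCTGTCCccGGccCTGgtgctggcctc
Gabrd: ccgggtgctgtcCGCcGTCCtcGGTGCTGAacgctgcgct

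All 7 genes are known from neurons. Scn2a encodes a voltage-gated sodium channel, Kcnh4 a potassium channel, Trpc7 a cation channel, Gabrd the delta subunit of GABA-A receptors, Crh corticotropin-releasing hormone, Rtn2 a reticulon of the endoplasmic reticulum, and Mmp24 a membrane-bound metalloproteinase. The Scn2a element was the closest match, with 2 mismatches, and those at Kcnh4, Trpc7 and Crh had 3. Mmp24 had 4, and Rtn2 and Gabrd had 5. The centre of the element lay 1.5 to 59.5 bases from the summit. Fold enrichment over input, as the peak caller gave it, ran from 8.54 at Crh to 10.5 at Rtn2, with a median of 9.67, against 9.54 for the members without an element. None was among the 100 members of highest enrichment, and 1 was among the 100 lowest, counts too small to compare. In 6 of the 7 the summit was downstream of the start site, and the distance from it ran from 188 bases at Trpc7 to 775 at Scn2a, with a median of 531. The Scn2a summit was upstream of its start site and outside any curated transcript, the Trpc7 summit was in the 5′ UTR, and the other 5 were in introns.

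The most enriched members had no such element. The search compared the consensus without gaps, so the left and right parts of an RE1 at a wider spacing were not counted as an element. The next windows show 121 bases centred on the summit for the 4 members of highest fold enrichment, for Rab4b (the highest of the membrane traffic genes) and for Klf7 (the member nearest a WT peak), each on the strand of its gene. Capitals mark exact matches, on either strand, to 10 short elements: the GC box GGGCGG, the CCAAT box CCAAT, the cyclic AMP response element TGACGTCA and its core TGACG, the ETS site CCGGAAG, the NRF1 core TGCGCA, the E-box CACGTG, the YY1 core AAGATGG, the AP-1 site TGANTCA and the TATA box TATAAA. No window touches an exon. They lie at H3c8 at chr13:23535158-23535278 (plus strand), Tsc22d2 at chr3:58414262-58414382 (plus strand), Kdm6a at chrX:18162430-18162550 (plus strand), Cnot4 at chr6:35133825-35133945 (minus strand), Rab4b at chr7:27179000-27179120 (minus strand) and Klf7 at chr1:64121651-64121771 (minus strand).
H3c8: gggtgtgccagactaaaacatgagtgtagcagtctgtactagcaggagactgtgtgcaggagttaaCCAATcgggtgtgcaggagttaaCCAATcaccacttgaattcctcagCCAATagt
Tsc22d2: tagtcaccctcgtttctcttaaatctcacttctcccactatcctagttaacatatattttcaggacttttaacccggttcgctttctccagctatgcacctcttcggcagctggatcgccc
Kdm6a: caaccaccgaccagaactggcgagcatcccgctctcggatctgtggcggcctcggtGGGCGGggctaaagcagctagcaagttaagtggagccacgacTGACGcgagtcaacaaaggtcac
Cnot4: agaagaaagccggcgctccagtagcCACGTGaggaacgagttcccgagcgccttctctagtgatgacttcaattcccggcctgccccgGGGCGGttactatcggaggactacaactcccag
Rab4b: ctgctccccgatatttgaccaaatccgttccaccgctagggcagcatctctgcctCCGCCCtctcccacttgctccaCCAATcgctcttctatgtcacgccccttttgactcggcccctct
Klf7: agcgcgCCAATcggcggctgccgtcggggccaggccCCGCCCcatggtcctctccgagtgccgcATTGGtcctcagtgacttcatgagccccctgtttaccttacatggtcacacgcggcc

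H3c8, a replication-dependent histone H3 gene, had 3 CCAAT boxes in this window. Kdm6a held 1 GC box and 1 core of the cyclic AMP response element, Cnot4 held 1 GC box and 1 E-box, and Klf7 held 1 GC box and 2 CCAAT boxes. The Tsc22d2 window held none of the 10. A match is a description of the letters and not evidence of a bound factor.

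Fold enrichment of the 599 members ran from 8.50 to 18.6 with a median of 9.55. These values, with the q values, decided which peaks were listed, so they are not themselves compared by a test. The members crowded the lower end of the list, since 432 of 599 were over 9, 228 over 10, 62 over 12, 8 over 15 and none over 20. The 631 shared peaks ran from 8.51 to 55.8 with a median of 12.6, and 119 of them were over 20. Low values were common to the 3xTg-only peaks elsewhere, with medians of 9.67 inside gene bodies, 9.83 at two-strand promoters and 9.84 between genes. By enrichment the first member ranked 589 among the 5077 peaks and the median member 3643. The peaks were 388 to 5073 bases wide with a median of 1155, and the widest lay at Tsc22d1 (5073 bases), Tpm1 (4664) and Sipa1l1 (3570).

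**Figure D1:**
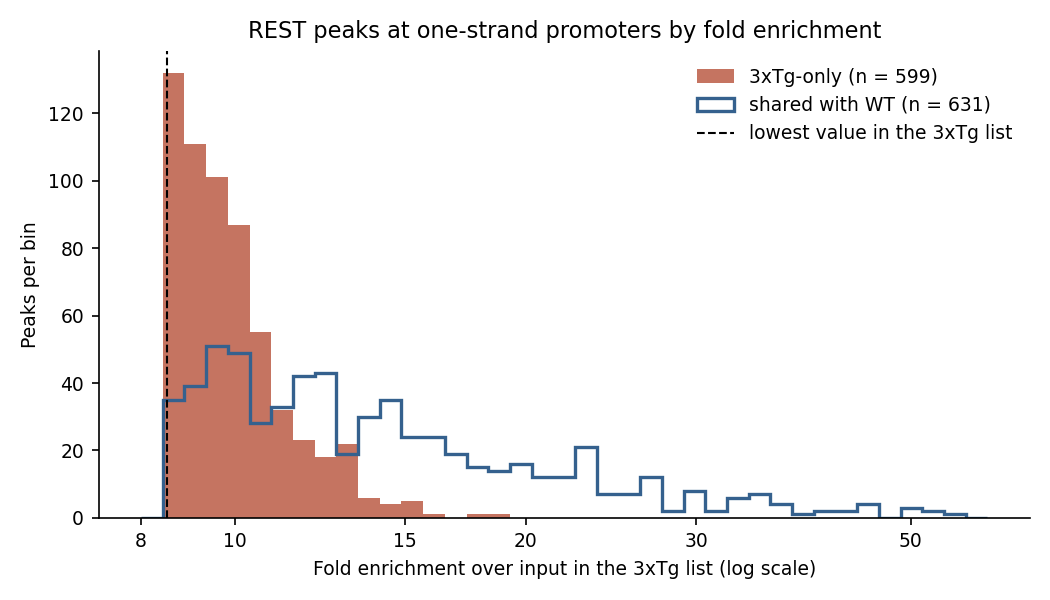
Number of peaks at one-strand promoters by fold enrichment over input in the 3xTg list (log axis), for 599 3xTg-only peaks (filled) and 631 shared peaks (outline); the dashed line is the lowest value in that list, 8.50. The 3xTg-only peaks end at 18.6, and the shared peaks reach 55.8.

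The 2 lists had different lower limits. The lowest fold enrichment was 8.50 in the 3xTg list and 6.003 in the WT list, and the lowest −log10 q was 29.0 and 13.3. The methods state a lower bar, a fold enrichment above 5 with q below 0.01, and how the higher limits arose is not given in the sources used here. At the 631 shared one-strand promoters the 3xTg value exceeded that of the strongest overlapping WT peak at 628 (99.5%), with a median ratio of 1.63 (10th to 90th percentile 1.31 to 2.15). That ratio covers only peaks that passed both limits. The WT limit multiplied by that median ratio is 9.80, and 339 of the 599 members (56.6%) had a fold enrichment below it. The study's library summary lists more mapped reads in total for the 3xTg than for the WT libraries. Depth and genotype therefore cannot be told apart in the count of 3xTg-only peaks.

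The 10 members of highest enrichment were H3c8 (18.6), Tsc22d2 (17.6), Kdm6a (16.1), Cnot4 (15.5), Medag (15.4), Srgap3 (15.2), Jarid2 (15.0), Dck (15.0), Rnu5g (14.7) and Unc80 (14.3). They serve different functions. Kdm6a is a histone H3 lysine demethylase on the X chromosome, Jarid2 a component of Polycomb repressive complexes, and Cnot4 a ubiquitin ligase of the CCR4-NOT complex. Unc80 belongs to the NALCN sodium leak channel, Dck is deoxycytidine kinase and Rnu5g is a U5 spliceosomal RNA gene. Summits lay between 740 bases upstream (Medag) and 248 bases downstream (Unc80) of the start site. Srgap3 also had 1 peak elsewhere in the gene that was shared with WT and 2 that were 3xTg-only.

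Most members were far from any WT peak. The distance to the nearest one had a median of 141320 bases, 352 members were more than 100 kb away, 21 were within 5 kb and 4 within 1 kb. Such distances were not particular to the members. For other 3xTg-only peaks the median was 148576 bases inside gene bodies, 118910 at two-strand promoters and 224296 between genes. The nearest member was Klf7, a zinc finger factor of neurons, where the 3xTg peak (chr1:64121539-64123003, fold enrichment 11.0) ended 85 bases from a WT peak. It was followed by Sgk1, a stress-regulated kinase (439 bases), Sertad3 (526) and Atp5g2, a subunit of ATP synthase (764). On the other side of this limit, the shared peaks with the least overlap, at Asf1a and Afg3l2, overlapped WT by 281 bases each. For the distance to the start site, the outermost members were C030034I22Rik, 978 bases downstream, and Fam222a, 976 bases upstream. The first 3xTg-only peaks beyond 1 kb were at Srebf2 (1003 bases) and at Unc79 and Ablim1 (1011 each). The lowest fold enrichment was that of Gsk3a, at 8.50, followed by Pla2g15 and Ensa.

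Summits clustered just upstream of the start site, with a median position of 108 bases upstream. Of the 599, 184 (30.7%) lay over 100 and up to 250 bases upstream, 102 within the first 100 bases upstream or on the start site, and 81 within the first 100 bases downstream. The start site was inside the peak at 539 (89.98%). Within 100 bases of the start site lay 183 of 599 members (30.6%, 95% Wilson interval 27.0 to 34.3) and 170 of 631 shared peaks (26.9%, 23.6 to 30.5), and the shares did not differ past the threshold (Fisher's exact test, two-sided, adjusted p = 0.353). The summit was downstream in 189 members (31.6%, 28.0 to 35.4) and 173 shared peaks (27.4%, 24.1 to 31.0), with adjusted p = 0.334 by Fisher's exact test. By the curated annotation 358 member summits lay outside transcripts, 108 in introns, 92 in 5′ UTRs, 21 in coding exons, 19 in non-coding exons and 1 in a 3′ UTR. Peaks are not replicates, and these intervals cover counting error only.

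**Figure D2:**
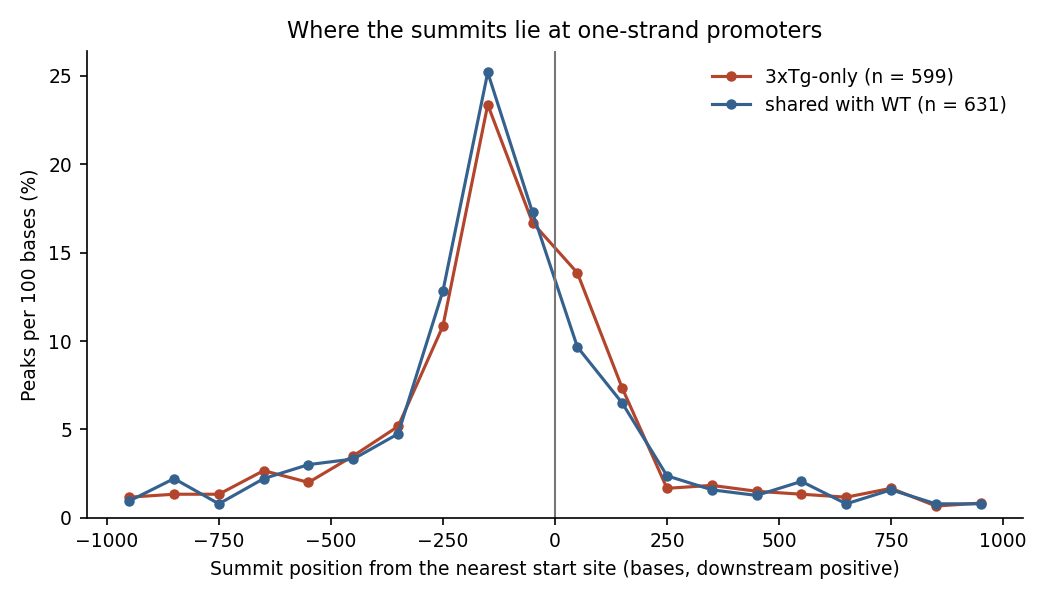
Share of peaks in each 100-base bin of the summit's position from the nearest start site (downstream positive, in bases), for 599 3xTg-only and 631 shared peaks. Both lines peak in the bin from 200 to 100 bases upstream.

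The RE1 was the feature on which the 2 classes differed. It was near the summit in 7 of 599 members (1.17%, 95% Wilson interval 0.567 to 2.39) and in 47 of 631 shared peaks (7.45%, 5.65 to 9.76), which gave an odds ratio of 0.147 and, by the two-sided Fisher's exact test with Benjamini-Hochberg adjustment over 17 features, adjusted p = 5.16e-07. Windows of 200 bases at every curated start site held it in 0.781%. A window 10 kb downstream of each member summit held it in 1 of 599, and the 7 against 1 did not pass (Fisher's exact test, two-sided, unadjusted p = 0.0694). That test ignored the pairing of each downstream window with its summit. At 2 mismatches there was 1 member against 15 shared peaks, and at 3 there were 3 against 19. At 6 mismatches, the first count outside the limit, there were 22 members and 17 shared peaks. Among 3xTg-only peaks elsewhere the element was in 19 of 1162 in gene bodies (1.64%) and 12 of 676 between genes (1.78%).

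The RE1 also went with enrichment among the shared peaks, where those with the element had a median 3xTg fold enrichment of 17.5 and those without it 12.4. Restricted to fold enrichment from 10 to 15, the element was in 2 of 220 members and 14 of 269 shared peaks, and the odds ratio of 0.167 no longer passed (p = 0.00897 unadjusted and 0.152 adjusted by Fisher's exact test). When a peak counted as shared only if the overlap covered at least 50% of both peaks, 175 more peaks joined the 599, and the shares became 28 of 774 and 26 of 456 (odds ratio 0.621, adjusted p = 0.844 by Fisher's exact test). The difference therefore passed for peaks without any WT overlap, but not within fold enrichment 10 to 15 or under the stricter definition of sharing. A reciprocal rule also depends on peak width, with a median of 611.5 bases in the WT list and 937 in the whole 3xTg list. The part of width was not tested.

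**Figure D3:**
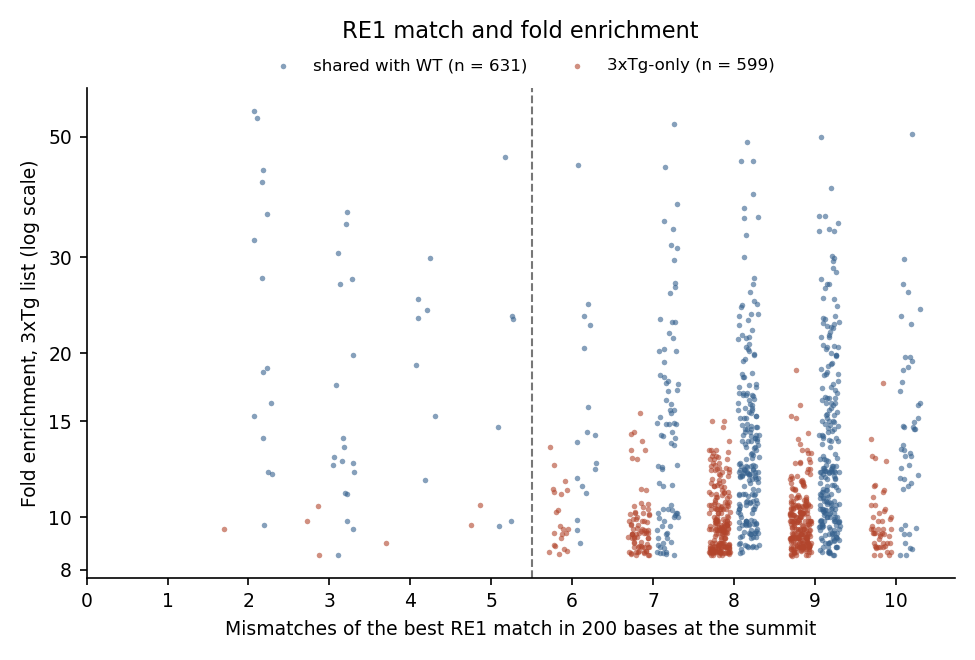
Mismatches of the best RE1 match in the 200 bases at the summit (horizontal, points spread sideways for visibility) against fold enrichment in the 3xTg list (log axis); left of the dashed line are peaks with at most 5 mismatches. The 7 3xTg-only peaks there lie between 8.54 and 10.5, while the 47 shared ones reach 55.8.

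The left and right parts of the RE1 were also searched on their own. Unc80 (fold enrichment 14.3) held both near its summit, in the order and orientation of the RE1 but further apart. Its best ungapped match had 7 mismatches, so it was not counted as an RE1. How many members held both parts at such a spacing was not tested. CAGCACC was in 50 members (8.35%) and 82 shared peaks (12.995%), with adjusted p = 0.0826 by Fisher's exact test, and GGACAG in 111 (18.5%) and 137 (21.7%), with adjusted p = 0.353. Of the 50, 12 were copies of the 5S ribosomal RNA gene, described later. Without them 38 of 587 members (6.47%) held CAGCACC, with an odds ratio of 0.463 against the shared peaks (adjusted p = 0.00133 by Fisher's exact test), an alternative chosen after seeing the data.

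Of the remaining features none passed the threshold. Shares at start sites come from windows centred on the start site, at one-strand and two-strand promoters alike. Those at peaks come from windows centred on the summit, so the start-site shares are not like for like. A CpG-rich window, meaning 500 bases at the summit with at least 50% G+C and an observed to expected CpG ratio of at least 0.6, was found at 386 members (64.4%, 60.5 to 68.2) and 411 shared peaks (65.1%, 61.3 to 68.8), with adjusted p = 0.950 by Fisher's exact test, against 45.3% of start sites. The median G+C of the member windows was 58.2%. The GC box was in 261 members (43.6%) and 263 shared peaks (41.7%), against 38.7% of start sites. The CCAAT box was in 192 (32.1%) and 239 (37.9%), against 26.8%, and the ETS site in 93 (15.5%) and 73 (11.6%), against 8.61%, each with adjusted p = 0.192 by Fisher's exact test. The NRF1 core was in 49 (8.18%) and 51 (8.08%), the E-box in 40 (6.68%) and 54 (8.56%), the YY1 core in 31 (5.18%) and 20 (3.17%), and the AP-1 site in 28 (4.67%) and 20 (3.17%). The TATA box was in 26 members (4.34%) and 28 shared peaks (4.44%), against 7.33% of start sites, and the full cyclic AMP response element in 11 and 13. Its core TGACG, which the full element contains, was in 143 of each class (23.9% and 22.7%).

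**Figure D4:**
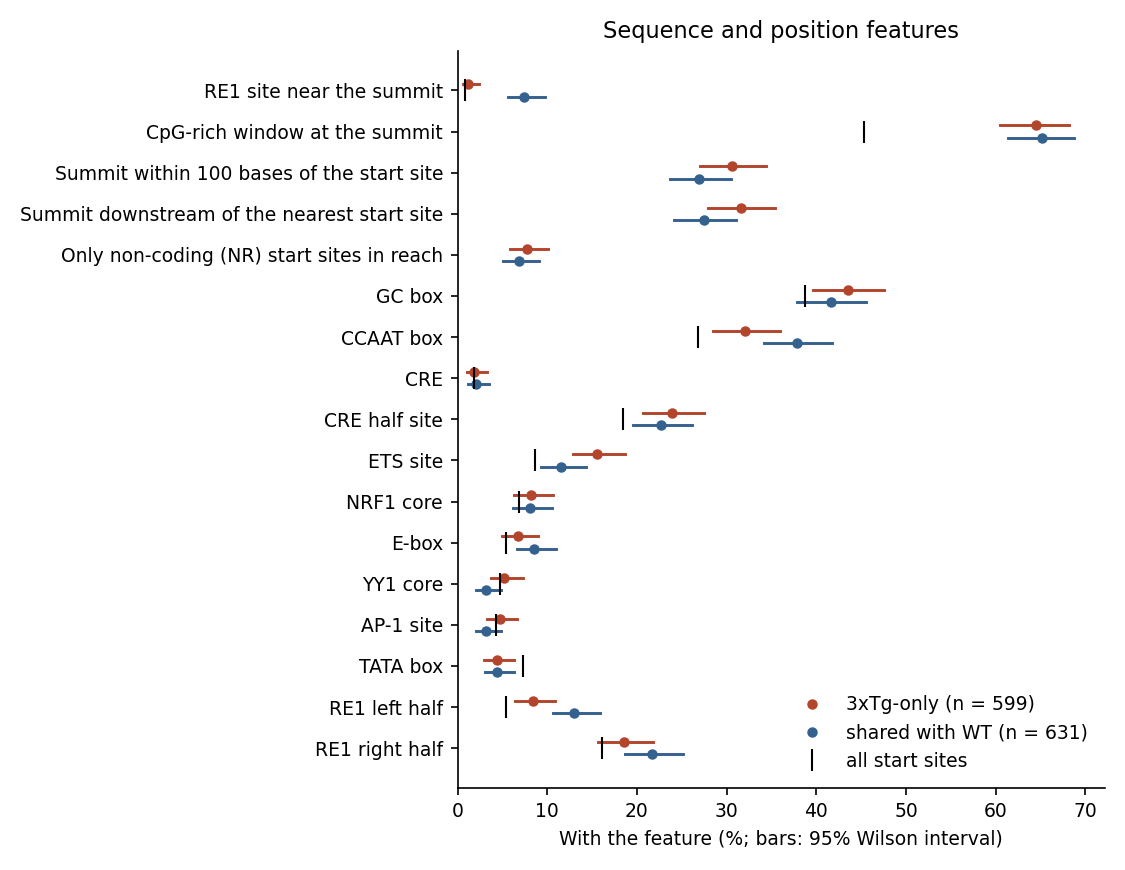
Share of peaks with each sequence or position feature, for 599 3xTg-only and 631 shared peaks, with 95% Wilson intervals; black ticks give the share over windows at all curated start sites where it was computed. The intervals of the 2 classes lie apart for the RE1 site and overlap for the other features.

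The features changed along the range of enrichment, given here as a description. Among the 100 members of highest fold enrichment (11.2 to 18.6), 50 had a CpG-rich window, 12 a summit within 100 bases of the start site and 8 an ETS site. Among the 100 lowest (8.50 to 8.80), these counts were 75, 44 and 17. The CCAAT box was in 25 of each.

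Within 1 kb of the member summits 605 genes started, 2.32% of the 26089 curated genes. The shared one-strand peaks had 636, and 4 genes (0.661% of the 605) were in both sets. Each peak was in 1 class only, so a gene with 1 start site could rarely be in both. The small overlap follows largely from the rule and is not a result about the genes. In 518 of the 599 (86.5%) no other 3xTg peak lay within the gene or 1 kb of it, in 55 (9.18%) another peak there was shared with WT, and in 45 (7.51%) another was 3xTg-only. Of 153 members at genes with several start sites, 104 (68.0%) were within 1 kb of the most upstream one. The 20 gene lists were chosen with earlier results of these data known and are described by counts only. Together they held 2744 genes, of which 92 (3.35%) had a member and 91 (3.32%) a shared one-strand peak. MicroRNA genes were 1190 of these, with 7 (0.588%) at members, which lowers the pooled share. Single lists are printed beside the 2.32% of all curated genes, which is not like for like. The 26089 also hold the microRNA genes and other non-coding genes, which most lists leave out. Most lists stood above 2.32%, so a list above it is not thereby set apart from the others. No share over coding genes alone was computed.

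Rest itself had a member, with fold enrichment 8.98, 310 bases downstream of a start site and within an intron (chr5:77265537-77266247). Its best RE1 match near the summit had 7 mismatches. Of 25 genes for Rest and its corepressors, 3 (12%, against 2.32% of all curated genes) had a member and 4 a shared peak. The others were Ctdsp2, a small phosphatase of the REST complex (8.80), and Zmym2, a zinc finger protein of the CoREST complex (8.63). Both summits lay within 132 bases of a start site.

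Of 56 neuronal genes long known as REST targets, 2 (3.57%) had a member and 17 (30.4%) a shared one-strand peak. Over all 26089 curated genes, 605 (2.32%) had a member and 636 a shared one-strand peak. The neuronal genes with a member were too few to read their share as more than a count. The members were Kcnc1, a potassium channel of fast-spiking neurons (9.94), with its summit 398 bases downstream in the 5′ UTR, and Scn2a (9.49). In the Kcnc1 peak the best RE1 match anywhere had 5 mismatches and the best near the summit had 7. Over all members, 31 (5.18%) had an RE1 anywhere in the peak, against 74 shared peaks (11.7%).

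Genes of membrane traffic had 15 of 138 (10.9%, against 2.32% of all curated genes) at members, with a median fold enrichment of 10.5, and 5 at shared peaks. Rab4b, a GTPase of endosome recycling, was highest (13.3), followed by Rab39 (12.1), Rab14 (11.8) and Rab1a (11.6), which acts between the endoplasmic reticulum and the Golgi. The Rab14 summit was 7 bases upstream of its start site. Rab4a, Rab5a, Rab8a, Rab28 and Rab40c, the sorting nexins Snx1, Snx13, Snx14 and Snx16, and Vps13b and Vps33b were also among the 15.

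The protein synthesis lists had 7 of 71 translation factor genes (9.86%) and 7 of 82 ribosomal protein genes (8.54%) at members, against 2.32% of all curated genes. Eif3b and Eif3f, subunits of an initiation factor, had fold enrichments of 12.1 and 10.8, and Eif2s3x, on the X chromosome, had 9.49. Rps26 led the ribosomal proteins (12.8), followed by Rpl31 (11.0), Rps7 (9.84) and Rpl29 (9.83), whose summit lay 23 bases upstream. At shared peaks these lists had 4 and 3 genes. Of 107 respiratory chain and ATP synthase genes, 6 (5.61%) had members, led by Atp5k (12.5) and Atp5g2 (11.7) and including the complex III subunit Uqcrq (9.43).

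Among regulators, 7 of 96 chromatin genes (7.29%, against 2.32% of all curated genes) had members and 10 had shared peaks. After Kdm6a came Kmt5b, a histone H4 methyltransferase (10.2), Kat5, the TIP60 acetyltransferase (10.1), and Smarcal1, a DNA annealing helicase (9.79), with Kmt2d, Hdac9 and Smarcad1 below. Of 26 Klf and Sp genes, 3 (11.5%) had members, Klf7 (11.0), Sp2 (10.6) and Klf6 (10.4), and 3 had shared peaks. The Zfp genes, with 10 of 368 (2.72%), led by Zfp84 (12.3) and by Zfp36 (10.5), which encodes an mRNA decay factor, and the ubiquitin pathway, with 7 of 221 (3.17%), led by Ube2f (11.98) and Usp30 (11.0), were near the share over all genes. The splicing factor genes Snrpb2 (10.2) and Hnrnpul1 (9.59) were 2 of 53.

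For genes of cell stress and death the counts were small, and they stand beside 2.32% of all curated genes with a member. Of 50 apoptosis genes 3 had members, namely Birc2, an inhibitor of apoptosis (11.6), Aifm1, a mitochondrial flavoprotein (9.49), and Pdcd4 (8.98), and 3 had shared peaks. A cell cycle list gathered by gene name prefixes had 6 of 86 (6.98%) at members and 1 at a shared peak. Highest were Cdk9 (11.97), a kinase of transcription elongation, the cell cycle factor E2f3 (10.6), Cdc37l1 (10.2), an Hsp90 co-chaperone, and the cyclin-dependent kinase inhibitor Cdkn2d (9.54). Of 33 kinases that act on tau, 3 had members and 1 a shared peak. These were Mark2 (11.2), the protein kinase A catalytic subunit Prkaca (8.52) and Gsk3a (8.50), the weakest member. The single genes Mdc1, which acts at DNA breaks (11.1, of 29), and Syvn1, an endoplasmic reticulum ubiquitin ligase (8.57, of 45), stood against 4 at shared peaks in each list. Of 36 immediate early genes 2 had members and 4 had shared peaks. They were Dusp6, a phosphatase that turns off ERK (13.9), and Klf6. No gene of 41 in the Wnt list had a member and 1 had a shared peak.

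**Figure D5:**
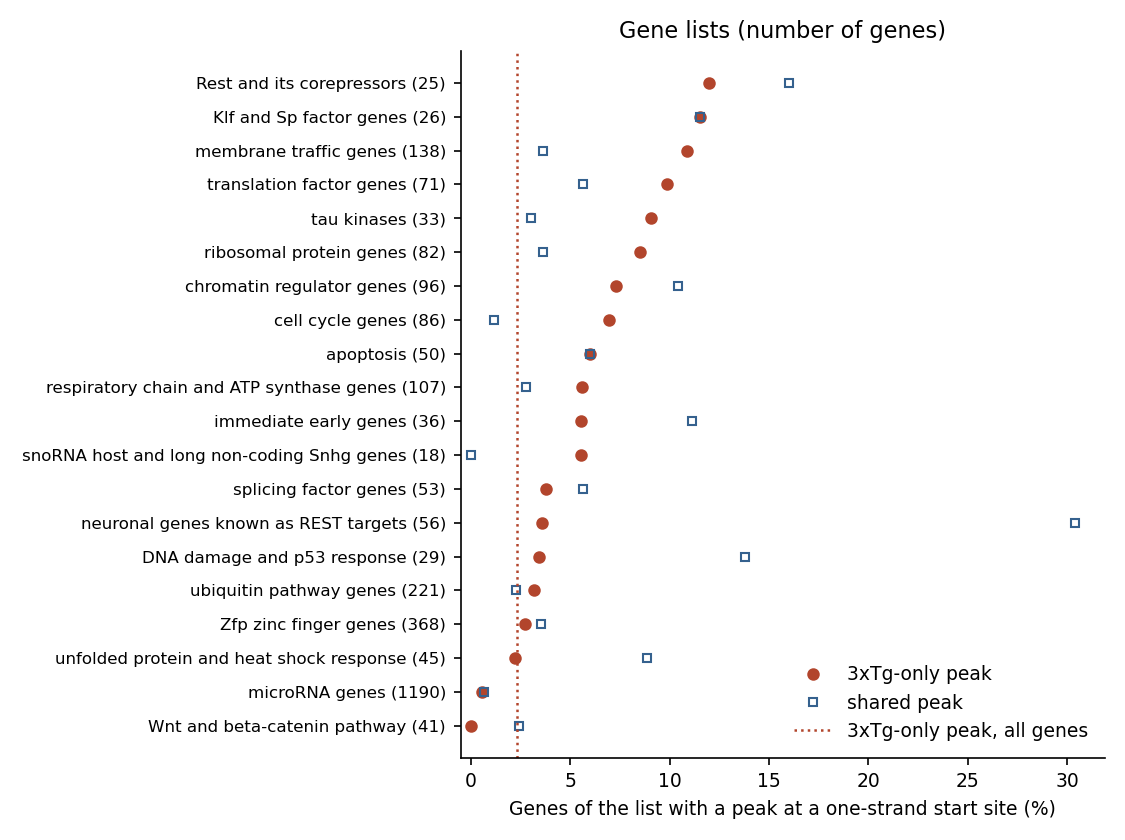
Share of the genes of each list that had a 3xTg-only peak (filled circles) or a shared peak (open squares) at a one-strand start site, with the number of genes in brackets; the dotted line is the share of all curated genes with a 3xTg-only peak, 2.32%. The neuronal REST targets stand at 3.57% for 3xTg-only and 30.4% for shared peaks.

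None of 8 genes singled out in the study had a member of its own. The peaks nearest to the start sites of Gsk3b (fold enrichment 8.57) and Gadd45a (15.0) were 3xTg-only but at two-strand promoters, and that at Cdk5 (12.5) was shared and at a two-strand promoter. The nearest summit to Daxx was 6423 bases away and belonged to a member at Zbtb22 (11.9), 152 bases upstream of the Zbtb22 start site. At Foxo3 (8.90), Casp9 (14.7), Tle3 (69.0) and Cacng2 (45.2) the nearest peak was shared with WT. The Foxo3 summit lay 1356 bases from its start site and the Casp9 one 2763 bases, nearest to Dnajc16. A shared peak can still be higher in 3xTg. By differential binding over replicates the study reported raised occupancy at Cdk5, Gsk3b, Daxx, Foxo3, Gadd45a and Casp9. It checked Cdk5, Gsk3b and Daxx by ChIP-qPCR, and named Tle3 and Cacng2 as loci of strong binding.

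Start sites of non-coding transcripts alone were in reach of 46 members (7.68%) and 43 shared peaks (6.81%), with adjusted p = 0.826 by Fisher's exact test. They included 12 copies of the 5S ribosomal RNA gene, Rnu5g, Snhg12 (9.50), Mir133c (11.4) and Mir8108 (9.84), and 30 other transcripts. All 12 of the 5S copies lay in the array on chromosome 8, where 25 annotated copies start between positions 123538904 and 123622046. The 3xTg list had 13 peaks over this array and the WT list none, and no WT peak was closer than 454561 bases. The 12 members had fold enrichments of 8.57 to 10.4 with a median of 9.03 and summits 40 to 111 bases downstream of the start site, and 72.5 to 97.0% of each summit window was soft-masked as repeat. They were 12 of the 14 members with over 50% soft-masked bases, and all 12 had a CpG-rich window and CAGCACC. The copies are near identical, so reads cannot be assigned to one of them with certainty. They were chosen for description after their values were seen, as were the histone genes. Of 1190 microRNA genes, 7 (0.588%) were in reach of a member, several of them beside the start of a coding gene, as Mir2861 and Mir3960 at Cdk9.

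Of 103 histone genes, 8 (7.77%) had a member and 5 (4.85%) a shared one-strand peak. Over all 26089 curated genes, 605 (2.32%) had a member and 636 a shared one-strand peak. At the shared peaks H2aj reached 20.6, H3c6 14.5, H4c2 12.6 and H3c14 11.8, a peak that was also within reach of H2ac18. H3c8 and its neighbour H2ac10 (9.79) had adjacent peaks on chromosome 13 whose summits were 1216 bases apart, and H2ac4 (11.0), H4c12 (9.62) and H4c11 (9.49) lay on the same chromosome. H2ax, the histone of DNA breaks, had 9.37, H2az2 9.15 and H4f16 9.15. Histone genes of these clusters have close copies, so the counts at single genes are uncertain. Over the chromosomes, members made up 28.6% (chromosome 14) to 77.8% (X, 14 of 18) of one-strand promoter peaks. The X members included Kdm6a and, named after their values were seen, Tsc22d3 (12.9) and Ddx3x (10.7).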

How the data were processed

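REST ChIP-seq peak lists of WT and 3xTg cortex were analysed, 1 per genotype, each called by the authors on 4 libraries together with MACS against input. Per the labels and the study's methods, reads were aligned to mm10 (BWA is named for some libraries, STAR 2.7.0a for others) and the stated filter was fold enrichment over 5 and q under 0.01 outside blacklisted regions, although the lowest values in both lists are higher. The deposited values used were the fold enrichment (a ratio to input), the −log10 q and the summit position. The lists hold no read counts, so depth is not in them.

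Chromosome Y was left out. Start sites were those of curated (NM and NR) transcripts in the RefSeq annotation of GRCm38.p6. Members and gene lists were chosen with earlier results of these data known. Sequence came from that assembly and was read with pysam 0.24.0. Shares were compared between members and shared one-strand peaks with Fisher's exact test (scipy 1.17.1), two-sided, Benjamini-Hochberg adjusted over 17 features, threshold 0.05. The overlap was checked with bedtools 2.31.1 and the search for elements was tested on simulated data.

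Named genes were the 10 members of highest fold enrichment, those with an RE1 site, up to 4 per gene list by fold enrichment, the widest and weakest members, those nearest each limit, and 8 genes the study names; other genes were named after their values were seen. Alternatives changed the overlap, enrichment, q, start-site and strand rules and the feature definitions. The q alternative removed no peak.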

Additional observations from a re-analysis of the deposited data

Results flagged for a closer look

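The mice were female, yet 9 peaks of the 3xTg list and 4 of the WT list were on chromosome Y. They were kept out of the comparisons, and 0 of the 9 were one-strand promoter peaks without WT overlap. Of the 9, 4 overlapped a WT peak, and these 4 lay nearest to Erdr1, a gene of the pseudoautosomal region that chromosome X also carries. A further peak, 3xTg-only and nearest to G530011O06Rik, lay close by. It started at position 90765359, and the foremost of the 4 at 90769640.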

How the results depend on the processing

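No paired analysis was possible because each genotype has 1 pooled list. Values are odds ratios, members against shared peaks, unless said otherwise. The setting with q under 1e-05 in both lists removed no peak and could only repeat the main values, so it is not counted here. The RE1 difference passed under the other settings tried and did not pass with 50% reciprocal overlap (0.621) or within fold enrichment 10 to 15 (0.167). Against windows 10 kb downstream, a different comparison, it was 7.07. The number of members was 228 at fold enrichment over 10, 220 from 10 to 15, and within 1.5 times 599 elsewhere. With coding start sites alone it was again 599, with 553 in both sets, and the non-coding feature had no value.

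The following changed direction, and none of them passed the threshold in either fit. With 50% overlap they were CpG-rich 1.04, within 100 bases 0.998, non-coding 0.902, GC box 0.922, NRF1 core 0.835 and TATA box 1.19. Over 10 they were within 100 bases 0.790, downstream 0.916, GC box 0.876, cyclic AMP element 1.23 and its core 0.902. From 10 to 15 they were within 100 bases 0.852, GC box 0.910, cyclic AMP element 2.47, its core 0.921 and GGACAG 1.03. With coding start sites they were NRF1 core 0.990 and TATA box 1.10, and within 500 bases CpG-rich 1.07 and AP-1 site 0.986. Stricter CpG limits gave 1.17 and 200 bases 1.03. Without the 5S copies the non-coding feature was 0.841. CAGCACC passed over 10 (0.410), with coding start sites (0.526) and without the 5S copies (0.463). The cause of these changes was not tested.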
